A study of Mus musculus with 5 samples.

Results

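Deep-layer cortical identity transcription factors are the genes whose products mark and specify the projection neurons of the lower cortical layers, and NEUROD2 binding was examined at 10 of them: Tbr1, Sox5, Foxp2, Zfpm2, Fezf2, Bcl11b, Otx1, Etv1, Foxp1 and Bcl11a. A peak was counted for a gene when its midpoint lay in the gene span, taken as the GENCODE M21 transcript with the longest span on mm10, or up to 50 kb beyond either end, and overlapping peaks of a window were merged into regions. Of the 94621 peaks in the 3 deposited lists, 282 met this rule, and they formed 154 of the 53837 regions of the series. Regions with peaks of at least 2 antibodies numbered 95 at these loci and 32262 in the genome. The 10 genes are among 21938 protein-coding genes of the annotation.

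NEUROD2-bound chromatin was isolated from the cerebral cortex (dorsal telencephalon) of E14.5 embryos of the BALB/c strain, without any genetic change or treatment, and was sequenced after ChIP with 3 antibodies: ab1 (Abcam ab168932, raised in mouse), ab2 (ab104430, raised in rabbit) and ab3 (ab109406, raised in rabbit). Each antibody had 1 library made from pooled embryos of several mothers, so there were no biological replicates and no contrast between conditions, and the 3 antibodies were 3 measurements of the same tissue. ChIP with antibodies against GFP, a protein absent from these embryos, supplied the control reads for the peak caller, 1 library from a mouse antibody for ab1 and 1 from a rabbit antibody shared by ab2 and ab3. The deposited score of a peak is the caller's p-value written as −log10 and multiplied by 10, so it grows with the depth of a library as well as with enrichment, and the read depth is not part of the peak lists.

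NEUROD2 is a basic helix-loop-helix transcription factor that binds E-boxes, short palindrome-like DNA elements, and is present in newborn excitatory neurons of the cortex. Deep-layer neurons are the earliest projection neurons to be born, and they send axons out of the cortex, those of layer VI mainly to the thalamus and those of layer V to the brainstem and spinal cord. The transcription factors examined here divide that territory between them: TBR1, SOX5, FOXP2 and ZFPM2 are associated with corticothalamic and subplate neurons, FEZF2, BCL11B, OTX1 and ETV1 with layer V neurons, and FOXP1 and BCL11A with broader sets of projection neurons.

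The sequences at the centre of the highest-scoring region are shown first for 8 of the loci, since they are the DNA on which the scores of the following paragraphs rest. Each is 120 bases of the plus strand of GRCm38 (mm10) around the midpoint of the region with the highest sum of the 3 antibodies' scores, in lower case. Capitals mark the extended E-box, which is a core of CAGCTG or CAGATG or CATCTG or CATATG followed by G or T, read on either strand. Etv1 had no region and so has no sequence.
Tbr1, chr2:61795352-61795471: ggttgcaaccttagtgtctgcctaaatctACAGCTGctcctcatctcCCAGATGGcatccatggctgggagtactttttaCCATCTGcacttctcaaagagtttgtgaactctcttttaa
Sox5, chr6:144472156-144472275: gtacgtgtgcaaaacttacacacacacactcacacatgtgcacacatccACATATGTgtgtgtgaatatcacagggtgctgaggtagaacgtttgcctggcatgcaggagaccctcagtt
Foxp2, chr6:14900951-14901070: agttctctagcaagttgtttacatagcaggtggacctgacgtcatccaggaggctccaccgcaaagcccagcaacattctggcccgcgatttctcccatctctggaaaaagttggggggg
Fezf2, chr14:12335249-12335368: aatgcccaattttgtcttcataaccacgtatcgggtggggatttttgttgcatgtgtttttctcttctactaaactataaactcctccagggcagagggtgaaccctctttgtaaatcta
Bcl11b, chr12:108005751-108005870: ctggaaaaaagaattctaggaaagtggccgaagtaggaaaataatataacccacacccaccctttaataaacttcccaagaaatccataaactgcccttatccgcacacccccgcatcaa
Otx1, chr11:22007372-22007491: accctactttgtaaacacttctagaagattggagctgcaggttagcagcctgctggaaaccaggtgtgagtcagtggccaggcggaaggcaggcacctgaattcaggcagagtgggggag
Foxp1, chr6:99485662-99485781: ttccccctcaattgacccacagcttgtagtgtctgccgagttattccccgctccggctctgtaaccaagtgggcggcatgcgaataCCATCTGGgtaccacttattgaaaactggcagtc
Bcl11a, chr11:24211553-24211672: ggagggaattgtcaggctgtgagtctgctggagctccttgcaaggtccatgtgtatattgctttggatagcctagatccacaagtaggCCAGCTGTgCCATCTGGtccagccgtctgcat

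The Tbr1 window held 3 extended E-boxes and the Bcl11a window 2. In Sox5 a single palindromic CATATG core lay 7 bp from the midpoint of the region, and in Foxp1 a single CAGATG core lay 30 bp from it. The windows of Foxp2, Fezf2, Bcl11b and Otx1 held none. Their closest extended E-boxes were 94 bp from the midpoint in Fezf2, 100 bp in Bcl11b, 290 bp in Otx1 and 1158 bp in Foxp2, whose 2563-bp region held 1 such element in all.

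For 2 of the genes the study designed ChIP-qPCR primers, and these are located here on the peaks. The paper reports NEUROD2 binding above GFP ChIP for both genes by qPCR, at sites it calls promoter regions. The Bcl11b pair amplifies 203 bp, chr12:108006437-108006639, whose midpoint is at −2936 bp from the transcription start site (TSS), negative values being upstream. It lies inside the region with the highest sum of that locus. The Fezf2 pair amplifies 150 bp, chr14:12345399-12345548, in intron 3 of the longest-span transcript and 2716 bp downstream of its start. That product lies inside a region of ab1 (score 132.98) and ab2 (77.8), the lowest in sum of the 9 regions of Fezf2.
Bcl11b forward: ccagagctgataccctggag
Bcl11b reverse: tctcctccttttccctctgc
Fezf2 forward: gctctttcagtgcccagttc
Fezf2 reverse: tgccctgggactatgaaagg

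NEUROD2 regions with at least 2 antibodies were present at 9 of the 10 loci, and Etv1 was the exception. Among all protein-coding genes 67.6% had such a region in the same kind of window. Regions with all 3 antibodies were present at 7 of the 10 loci, beside 26.7% of protein-coding genes. These counts depend on the length of the window, which ran from 104.802 kb for Fezf2 to 1038.24 kb for Sox5, so they are given per length further on.

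Sox5 had the most regions with at least 2 antibodies, 29, followed by Foxp2 with 14, Foxp1 with 13, Zfpm2 with 11, Fezf2 with 9, Tbr1 with 8, Bcl11b with 6, Bcl11a with 3 and Otx1 with 2. Of the 95 regions, 28 had peaks of all 3 antibodies (29.5%, 95% Wilson interval 21.2 to 39.3%), beside 22.2% in the genome. Wilson intervals given here cover counting error only, and neighbouring regions of a locus are not independent. The other 67 had peaks of ab1 and ab2, and no region paired ab3 with only 1 of the other antibodies. Every ab3 peak at these loci therefore lay in a region that both ab1 and ab2 also called, and without either of them only these 28 regions remained. This nesting was general, since 97.9% of the 7313 regions of the genome with an ab3 peak were called by all 3 antibodies. With scores of at least 100 alone, the share with all 3 antibodies was 18.2% of 66 regions (10.7 to 29.1%), beside 15.6% of the 20167 such regions of the genome. A further 52 of the 154 regions were called by ab1 alone (33.8%, 26.8 to 41.5%) and 7 by ab2 alone (4.55%, 2.22 to 9.08%), beside 35.0% and 4.91% of all regions of the genome. At least 2 antibodies called 61.7% of the regions here and 59.9% in the genome. The lists differed in length, ab1 having 51841 peaks in the genome, ab2 35310 and ab3 7470, and the part of this in the counts was not tested.

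**Figure D1:**
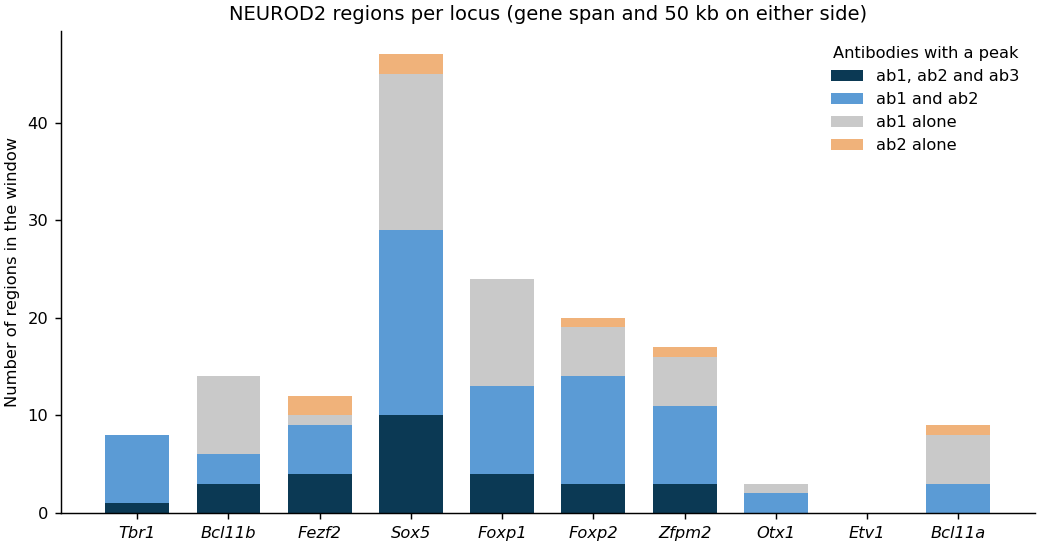
Number of NEUROD2 regions in the window of each gene, stacked by the antibodies that had a peak in the region. Sox5 stands highest with 47 regions, Tbr1 is the only bound locus where each region had at least 2 antibodies, and Etv1 has no bar because no antibody had a peak there.

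All antibodies were denser over these windows than over the assembly. Per 1 Mb, ab1 had 39.5 peaks in the windows and 19.02 on the assembled chromosomes, ab2 had 26.95 and 12.96, and ab3 had 7.33 and 2.74. These rates are descriptions of 3821 kb of chosen sequence, and no test was run on them.

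The window, the gene with its flanks, sets how far from a TSS a region can lie, so positions are given as a description. By midpoint, 67 of the 95 were in introns of the longest-span transcript, 14 upstream of the gene, 8 beyond its end, 4 in coding exons and 2 in exons outside a coding sequence. From the start of the longest-span transcript the median distance was 200434 bp, and 81 of the 95 regions were more than 10 kb away. Other annotated starts of a gene can be closer. Within 1 kb lay 3 of the 95 regions by the longest-span start and 11 by any annotated start of the gene. The 4 genes longer than 400 kb (Sox5, Foxp1, Foxp2 and Zfpm2) gave 67 of the 95 regions, 63 of these 67 inside the gene. They also gave 59 of the 64 regions more than 50 kb from the start of the longest-span transcript. Among those 59, regions of Foxp2 lay 5 and 131 bp from another annotated start, and a region of Sox5 137 bp from one. The 6 genes shorter than 100 kb gave 28 regions, 10 of them inside the gene, with a median distance of 17502 bp. With only the longest-span start of each protein-coding gene counted, the closest TSS was that of the factor itself in 85 of 95 regions. By that measure the others were closer to Etnk1 (3 regions of Sox5), Mdfic (4 regions of Foxp2), Oxr1 (2 regions of Zfpm2) and 3830406C13Rik (1 region of Fezf2). The 3 regions of Sox5 were nevertheless 28315 to 84437 bp from another annotated Sox5 start, and at least 695397 bp from Etnk1. The 4 regions of Foxp2 were 3010 to 34919 bp from another annotated Foxp2 start, and at least 309053 bp from Mdfic.

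**Figure D2:**
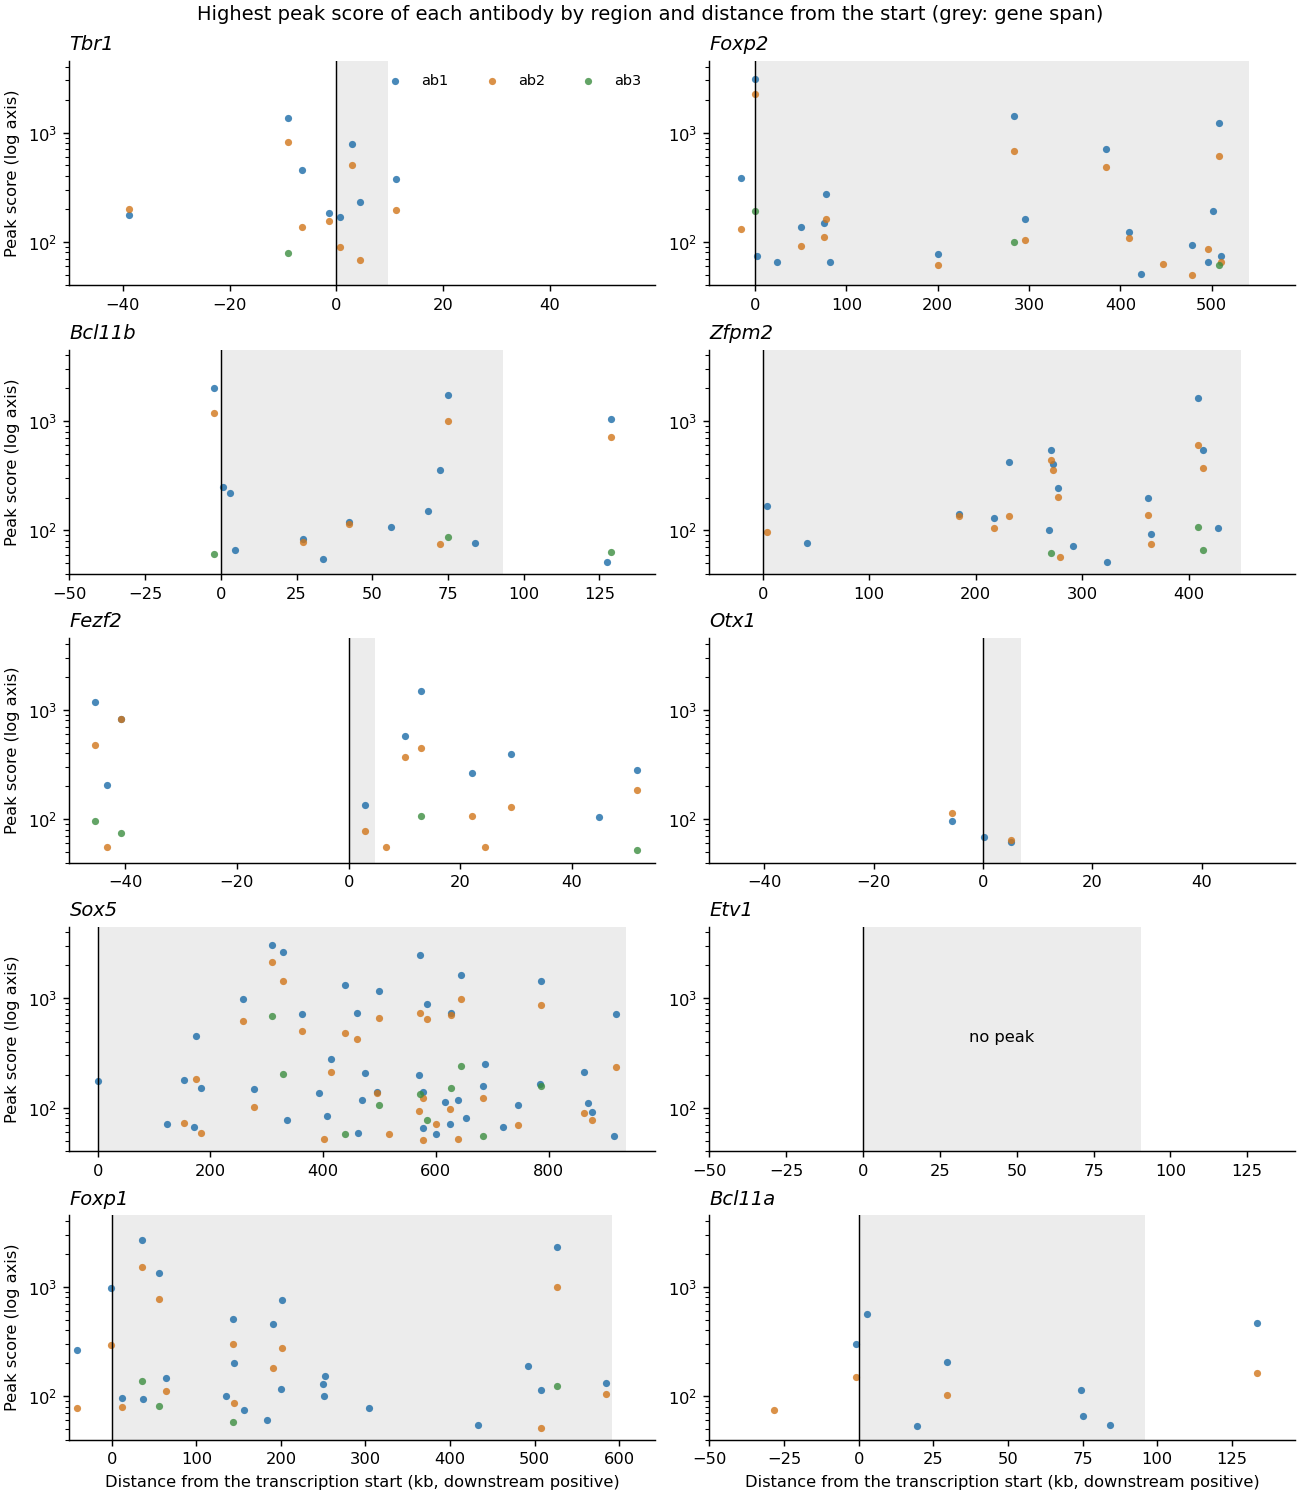
Peak scores along the 10 loci, with the distance of each region's midpoint from the TSS in kb on the horizontal axis, the highest score of each antibody on a log axis, and the gene span in grey. In Sox5 and Zfpm2 the high-scoring regions sit far inside the gene, in Foxp2 the highest one sits at the start, and in Fezf2 they lie on both sides of a short gene.

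Sox5 (chr6:143843739-144781977, minus strand) encodes an SRY-box factor that controls the sequential production of corticofugal neuron types. It had 29 regions, 28 of them in introns and 1 in an exon, and 10 had all 3 antibodies. The highest was chr6:144471333-144473098 in intron 3, 309762 bp downstream of the TSS, with scores of 3100 for ab1, 2136.1 for ab2 and 693.06 for ab3. The ab3 score there was the highest of that antibody at any of the 10 loci. The next in rank was 329349 bp from the TSS with 2640.2, 1428.12 and 202.5, and it was followed by one at 572662 bp with 2490.22, 734.93 and 132.45.

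The start of the longest-span Sox5 transcript carried only an ab1 peak (score 174.58, midpoint 62 bp upstream), and the closest region with at least 2 antibodies was 154063 bp away. That transcript is annotated as a retained-intron transcript, and the gene has 12 annotated starts. The region at 572662 bp had its midpoint 137 bp from another of them, so what counts as the promoter of Sox5 depends on the transcript.

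Tbr1 (chr2:61804453-61814114, plus strand) encodes a T-box factor that specifies layer VI corticothalamic neurons. All of its 8 regions had both ab1 and ab2, and 1 also had ab3. That region, chr2:61794692-61796130, was 9042 bp upstream of the TSS and was the highest of the locus, with scores of 1360.49, 822.3 and 79.45. The next, in coding exon 4 and 2893 bp downstream, had 792.13 for ab1 and 506.45 for ab2. A region over the first exon, chr2:61803946-61806455 with its midpoint 747 bp downstream of the TSS, was the lowest of the 8 in sum, with 169.35 and 89.21. Another had its midpoint 1310 bp upstream of this start and 213 bp from a different annotated start of Tbr1 (182.98 and 153.6). Of the 8 regions, 7 were spaced less than 10 kb from a neighbour and formed a run from the upstream side across the gene.

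Foxp2 (chr6:14901349-15441977, plus strand) encodes a forkhead factor of layer VI neurons. Its highest region was chr6:14899729-14902291, with its midpoint 339 bp upstream of the TSS, and the scores were 3100 for ab1, 2234.03 for ab2 and 191.08 for ab3. No other of the 10 genes had a region with all 3 antibodies within 1 kb of the start of its longest-span transcript. The ab2 score was the highest of that antibody at the 10 loci. Of the remaining 13 regions, 10 were in introns, 2 in coding exons and 1 upstream, and the 2 others with all 3 antibodies lay 283303 bp (1413.73, 673.78 and 98.81) and 507379 bp (1221.57, 615.35 and 62) downstream. The first of these was 5 bp from an internal annotated start of Foxp2.

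Zfpm2 (chr15:40655035-41104592, plus strand) encodes FOG2, a zinc finger cofactor of GATA proteins found in corticothalamic neurons. All 11 of its regions were in introns, and 3 of them had all 3 antibodies. Of these 3, the one in intron 4, 270913 bp from the TSS, had scores of 539.85 for ab1, 440.49 for ab2 and 62 for ab3. The region closest to the start was 3717 bp away in intron 1, with 168.45 for ab1 and 96.74 for ab2.

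Among the layer V factors, Fezf2 (chr14:12343388-12348189, minus strand) encodes a zinc finger factor required for subcerebral projection neurons. Its window held 9 regions with at least 2 antibodies, and 8 of them lay outside the short gene. The highest was chr14:12334715-12335901, 12881 bp from the TSS and past the end of the gene, with scores of 1488.11 for ab1, 449.8 for ab2 and 106.09 for ab3. On the upstream side a region 45383 bp away had 1168.77, 472.39 and 96.67, and one 40769 bp away had 825.64, 818.22 and 74.41. The fourth with all 3 antibodies was 51649 bp downstream and low (280.47, 186.04 and 52.61). It had the TSS of 3830406C13Rik at 12367 bp.

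The longest-span transcript of Fezf2 starts upstream of the others. Its single region inside the gene, chr14:12343899-12346790, was 2845 bp from that start and 500 bp from another annotated one. This region had 132.98 for ab1 and 77.8 for ab2, each below the scores of the distal regions that carried ab3.

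Bcl11b (chr12:107910403-108003602, minus strand) encodes CTIP2, a zinc finger protein needed for corticospinal axon outgrowth. All 3 antibodies called 3 of its 6 regions. The highest, chr12:108004663-108006958, had its midpoint 2208 bp upstream of the TSS, with scores of 1991.53, 1198.42 and 61.3. The second was in intron 3, 74912 bp from the TSS (1732.86, 996.92 and 86.2), and the third was 128938 bp from it, past the end of the gene (1041.68, 716.34 and 63.7). The remaining 3 regions were intronic with ab1 scores from 84.37 to 357.48. This locus had 8 regions called by ab1 alone, 1 of them 717 bp downstream of the TSS with a score of 252.01.

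Otx1 (chr11:21994769-22001710, minus strand) encodes a homeodomain factor of layer V and VI neurons that takes part in axon refinement. Only 2 regions were found, neither with ab3. The higher, chr11:22006784-22008078, was 5721 bp upstream and had 96.17 for ab1 and 112.38 for ab2, and the other lay in exon 3, 5172 bp from the TSS, with 61.49 and 64.14. A peak of ab1 alone (68.39) was 101 bp from the TSS. These scores are near the lowest score in the lists, 50, and the summed score of the higher region was below that of the highest region at each other bound locus. Its longest-span transcript is, like that of Sox5, of the retained-intron type.

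Etv1 (chr12:38780082-38870484, plus strand) encodes ER81, an ETS factor of layer V neurons. None of the 3 antibodies had a peak in its window of 190.403 kb. No peak of any antibody was found in 21.3% of protein-coding windows, and at 1 of the 10 loci here. The nearest peaks were those of ab2 171.711 kb upstream of the TSS and of ab1 112.21 kb beyond the end of the gene, and the stretch between the nearest peaks on the 2 sides was 373.807 kb long. A missing peak means that none passed the caller's p-value limit, which is a limit of these libraries and no measure of zero binding.

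Foxp1 (chr6:98929189-99520997, minus strand) encodes a forkhead factor of projection neurons in several layers. It had 13 regions, 11 in introns and 2 upstream, and 4 had all 3 antibodies. The highest was chr6:99484842-99486600 in intron 1, 35276 bp from the TSS, with scores of 2685.5, 1535.35 and 138.91. At the far end of the gene a region in intron 10, 526549 bp from the TSS, had 2299.38, 1002.19 and 124.48. The region at the start, chr6:99520195-99523790, had its midpoint 995 bp upstream of the TSS and scores of 976.6 for ab1 and 294.35 for ab2, with no ab3 peak. It was the widest of the 95, at 3596 bp, and covered the TSS.

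Bcl11a (chr11:24078117-24174123, plus strand) encodes CTIP1, a zinc finger protein that acts in cortical projection neuron subtype choice. It had 3 regions, none with ab3. The highest in sum, chr11:24211222-24212003, lay 133495 bp from the TSS and past the end of the gene, with 465.31 for ab1 and 161.88 for ab2. A region with its midpoint 1033 bp upstream of the TSS had 302.19 and 150.81, and it covered the TSS. One in intron 2 had 205.63 and 103.25. The highest ab1 score of the locus, 566.06, was in a region that neither ab2 nor ab3 called, 2808 bp downstream of the TSS and 255 bp from another annotated start. Of the 18828 regions of the genome called by ab1 alone, 99.9% had a lower score.

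At the starts of the longest-span transcripts, peaks of ab1 were the more common ones and ab3 was seen once, at Foxp2. With the longest-span transcript, 3 of the 10 genes (Tbr1, Foxp1 and Foxp2) had a region with at least 2 antibodies within 1 kb of the TSS, beside 20.8% of protein-coding genes. Distances were taken from midpoints, so the Bcl11a region that covered the TSS with its midpoint 1033 bp away was not counted. With any annotated start of the gene the count was 6 of 10, adding Fezf2, Sox5 and Bcl11a, beside 24.7%. A region holding an ab1 peak, with or without another antibody, was within 1 kb of the longest-span TSS in 6 of 10 genes, beside 35.2%. The 3 genes gained that way, Bcl11b, Sox5 and Otx1, had ab1 alone there. Since ab1 has its own control library, a peak seen by it alone cannot be told apart from a property of that antibody or of its control.

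RefSeq promoter windows (250 bases before to 50 after a start, GRCm38) were given for 7 of the 10 genes, 10 windows in all, and not for Foxp2, Zfpm2 and Otx1. Regions with at least 2 antibodies overlapped 3 of them, 1 each of Tbr1, Foxp1 and Fezf2. Regions of ab1 alone overlapped the windows of Bcl11a (566.06) and Bcl11b (252.01) and a second, internal window of Foxp1 (187.56). Neither of the Etv1 windows was overlapped by any peak. An extended E-box was present in 1 of the 10 windows, the second of Etv1, and in 26.3% of the 32851 RefSeq windows of the genome.

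Where 2 antibodies called the same region their scores rose together, as the plot of ab1 against ab2 shows for description only, since both come from the same tissue and both scores grow with the same enrichment. In the 28 regions with all 3 antibodies the median scores were 1353.73 for ab1 (156.31 to 3100), 711.59 for ab2 (121.8 to 2234.03) and 91.435 for ab3 (52.61 to 693.06). In the 67 regions with ab1 and ab2 the medians were 180.63 for ab1 (57.69 to 992.6) and 107.11 for ab2 (50.12 to 625.15). In regions called by ab1 alone the median was 82.395. The ranges of the first 2 classes overlapped, so the presence of ab3 followed the scores of the others without a sharp limit.

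The value 3100 was reached by ab1 in the highest regions of Sox5 and Foxp2 and is shared by 661 ab1 peaks of the genome, so these 2 regions cannot be ranked against each other by ab1. Over the 95 regions the median highest score was 280.24 for ab1 and 138.99 for ab2, close to the genome medians of 277.67 and 140.255. In 7 of the 9 bound loci ab1 and ab2 had their highest peak in the same region, the exceptions being Fezf2 and Bcl11a. In 5 of the 7 loci with an ab3 peak all 3 antibodies did, and Bcl11b and Fezf2 differed.

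**Figure D3:**
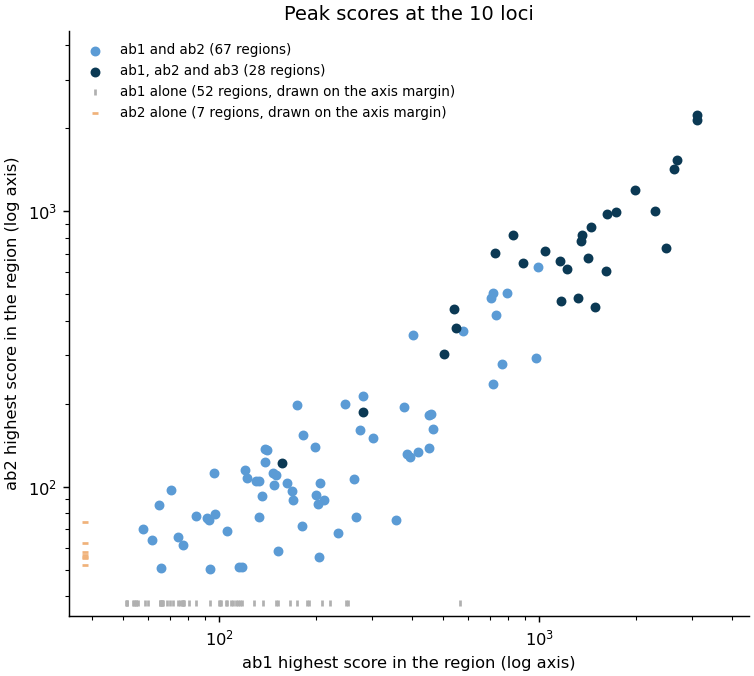
Highest ab1 score against highest ab2 score for each region at the 10 loci, on log axes, with regions of 1 antibody drawn on the margins. Regions that ab3 also called, in dark blue, reach from 156.31 to 3100 on the ab1 axis and overlap those of ab1 and ab2 alone, which reach from 57.69 to 992.6, and 1 region of ab1 alone, that of Bcl11a at 566.06, lies far to the right of the other ab1-only marks.

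The extended form of the E-box was derived by the study from its whole set of regions, these included, so its frequency in the centres is given as a description with no test. Of the 95 regions, 55 held it within 100 bp of the midpoint, the central 200 bp (57.9%, 95% Wilson interval 47.8 to 67.3%), and in 26.3% of windows of equal length that began 1000 bp beyond the lower-coordinate end of the same regions. In 41 regions the element was in the centre and not in the flank, and in 11 the reverse held. The share in the centres of all regions of the genome was 59.7%, inside the interval of the 10 loci. For CANNTG, the general E-box known without these data, the shares were 82.1% in the centres and 71.6% in the flanks, a difference that did not pass the test (McNemar's exact test, two-sided, p = 0.132, with regions of a locus treated as independent). A flanking window touched another called region in 8 of the 95 cases.

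By locus, Zfpm2 had the element in 10 of 11 centres, Fezf2 in 6 of 9, Tbr1 in 5 of 8, Foxp1 in 8 of 13, Sox5 in 16 of 29, Bcl11b in 3 of 6, Foxp2 in 6 of 14, Bcl11a in 1 of 3 and Otx1 in 0 of 2. The share was 67.9% (49.3 to 82.1%) in regions with all 3 antibodies, 53.7% (41.9 to 65.1%) in those with ab1 and ab2 and 54.2% (41.7 to 66.3%) in regions of a single antibody. Over the genome it was 63.4% in regions with all 3 antibodies and 58.6% in those with 2. The intervals of the 10 loci overlap, so no difference between the classes can be read there. A single element was found in 38 centres, 2 in 15 and 3 or more in 2.

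The share was lower close to a gene start, and this was not tested. Only 1 of the 11 regions within 1 kb of any annotated start of the member gene held the element in its centre (9.09%, 1.62 to 37.7%), against 54 of the 84 farther away (64.3%, 53.6 to 73.7%). The same split was present over the genome, with 26.9% of 5454 regions within 1 kb of a start of a protein-coding gene and 66.3% of 26807 others. The median GC content of the central 200 bp was 53.0% in the 11 regions (45.5 to 67.5%) and 46.5% in the 84 (32.0 to 66.0%), and its part in the difference was not tested. Among the 11, the region of Foxp2 283303 bp from its first start was the single one with the element. Sox5 and Foxp2 gave 3 each of the 11, so these regions are not independent.

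Of the 10 possible CANNTG cores, counted once for both strands, CAGATG was the most frequent and was found in 41 centres (43.2%, 33.7 to 53.2%), against 22.1% of the flanks and 43.1% of the regions of the genome. CATATG was found in 16 (16.8%, 10.6 to 25.6%), against 11.7% in the genome. CAGCTG was found in 15 (15.8%, 9.81 to 24.4%), against 28.1% in the genome, so the interval of the 10 loci lies below the share of the genome. Among regions more than 1 kb from a start the shares of CAGCTG were 17.9% (11.1 to 27.4%) and 29.9%. In the 28 regions with all 3 antibodies CAGATG was in 15 (53.6%, 35.8 to 70.5%), beside 47.2% of the 7160 such regions of the genome. CATATG was in 8 of the 28 (28.6%, 15.3 to 47.1%), beside 13.0%, and CAGCTG in 2 (7.14%, 1.98 to 22.6%), beside 29.2%. These are 3 of 10 cores looked at, singled out after their values were seen, and no test was run.

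**Figure D4:**
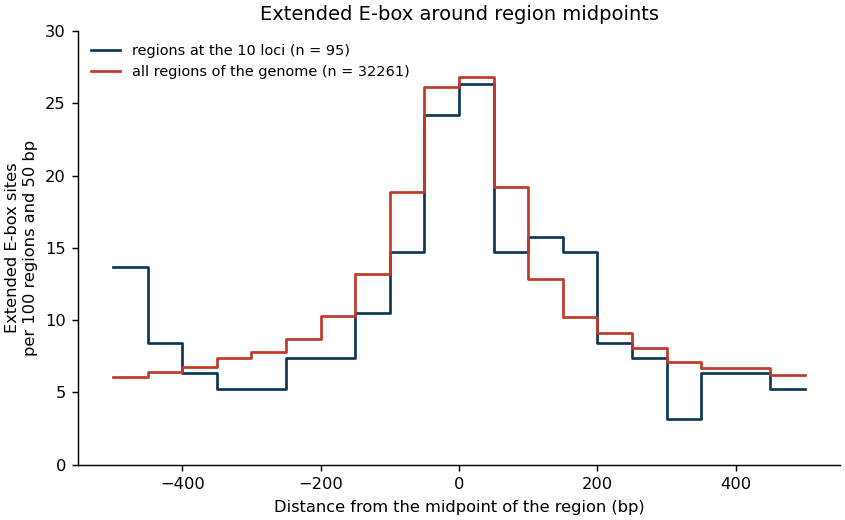
Extended E-box elements per 100 regions and 50-bp bin against distance from the midpoint of the region in bp, for the 95 regions of the 10 loci and for the genome. Both lines peak in the bins beside the midpoint, at 24.2 and 26.3 for the 10 loci, and fall to between 3.16 and 15.8 in the bins from 100 to 500 bp away.

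Per length, the densest loci were the short genes Fezf2, with 8.59 regions with at least 2 antibodies per 100 kb of window, and Tbr1, with 7.30. These were higher than 99.5% and 98.8% of protein-coding genes. Bcl11b had 3.11, Sox5 2.79, Foxp2 2.19, Zfpm2 2.00, Foxp1 1.88, Otx1 1.87, Bcl11a 1.53 and Etv1 0. The median over the 10 genes was 2.09, and that over protein-coding genes was 0.9499, with a 90th percentile of 3.79. Thus 9 of the 10 lay above the median of protein-coding genes and 2 above the 90th percentile. Without ab1, without ab2 or with all 3 antibodies required, the median over the 10 genes was 0.562 and that over protein-coding genes 0. Then 7 of the 10 lay above the latter and 3 (Fezf2, Bcl11b and Sox5, not Tbr1) above the 90th percentile. Sox5 fell from the first place by count to the fourth by density, and neighbours in this order from Foxp2 to Bcl11a differed by less than 1 region per 100 kb.

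Other lists of cortical genes were set beside the 10 factors by the same count. Of 12 further markers of deep layers and subplate, 11 had a region, and the median of the 12 was 2.71 per 100 kb. The lowest was 0 at Nr4a2, a nuclear receptor of subplate and claustrum neurons, where ab1 alone had 3 peaks. The highest was 7.59 at Ntsr1, a neurotensin receptor of layer VI neurons. All of 10 upper-layer genes had a region, with a median of 4.07, from 1.07 at Rorb, a nuclear receptor of layer IV, to 7.70 at Pou3f1, a POU factor. Of 11 genes of subpallial progenitors and interneurons 4 had a region, with a median of 0 and a highest value of 1.87 at Npy, a neuropeptide of interneurons. Of the 7 at 0, Dlx1, Dlx2 and Gad2 had peaks of a single antibody and Dlx5, Dlx6, Lhx6 and Nkx2-1 had none. The windows of Dlx1 and Dlx2 overlap, as do those of Dlx5 and Dlx6, so these are not separate loci. Regions within 1 kb of the longest-span TSS were present in 5 of 12 further deep-layer markers, 7 of 10 upper-layer genes and 0 of 11 subpallial genes. The count was 3 of 10 for the factors, beside 20.8% of protein-coding genes. With any annotated start only the count of the factors changed, to 6 of 10, beside 24.7% of protein-coding genes. No list was tested against another.

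**Figure D5:**
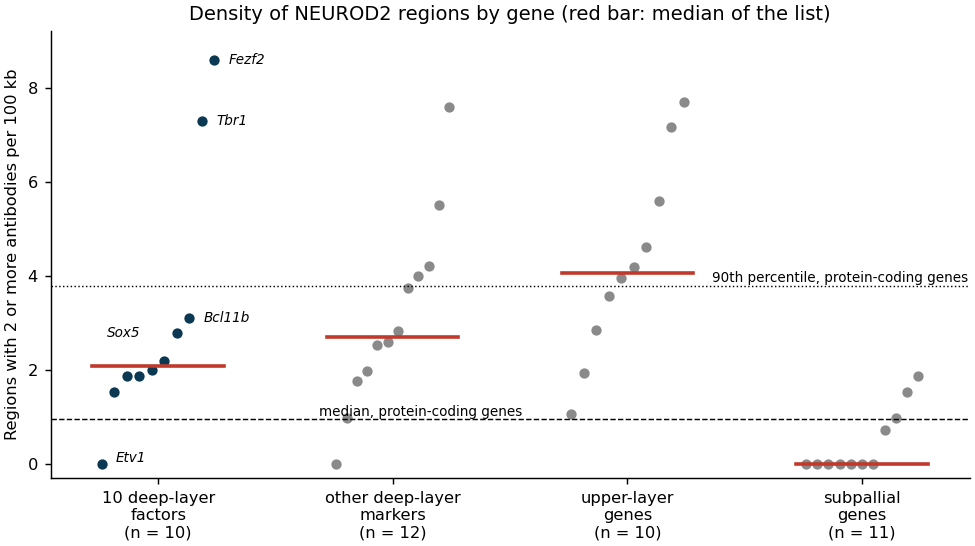
Regions with at least 2 antibodies per 100 kb of window for each gene of the 4 lists, with the median of a list as a red bar and the median (0.9499) and 90th percentile (3.79) of protein-coding genes as lines. Fezf2 and Tbr1 lie above the upper line, Etv1 lies at 0, and 7 of the 11 subpallial genes lie at 0.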

How the data were processed

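NEUROD2 ChIP-Seq peaks of 3 antibodies, 1 library each, from E14.5 cortex were used. According to the methods and the labels, the authors mapped single-end reads to mm10 with Bowtie, removed duplicates and reads with several positions, and called peaks with MACS against GFP libraries of the same host species. The deposited score of a peak is 10 times its −log10 p-value, not scaled between libraries. The 2 GFP libraries were not analysed here on their own. One region and its sequence are not reported here.

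Peaks were read as deposited, with positions counted from 1. Overlaps of at least 1 bp were merged within each window, and regions with at least 2 antibodies were kept. Midpoints were placed on GENCODE M21, sequence was read from GRCm38, and promoter windows came from RefSeq. Python 3.11.15, scipy 1.17.1, numpy 2.4.6, pysam 0.24.0 and matplotlib 3.10.9 were used, and merging, window assignment, motif search and the paired test were tested on simulated data first. Depth per library is not given in the peak lists, so intervals cover counting error only.

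The paired test of the extended E-box is not used as support, since the form was derived from the same regions. It serves only to sort the recomputed E-box values below. The members, gene lists and tests were chosen with earlier results of these data known. Genes named were the 10 factors, each with its region of highest summed score, save the one not reported, and the one closest to its TSS within 1000 bp, the highest and lowest gene of each comparison list, and genes closest to a region. Other regions of a locus, and the genes at 0 in the subpallial list, were named after their values were seen. Alternatives were a score of at least 100, an overlap of 50%, all 3 antibodies, each antibody left out, other flanks, positions, starts, motifs and motif windows.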

Additional observations from a re-analysis of the deposited data

How the results depend on the processing

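Of 50 recomputed values, 38 stayed within the limit allowed. This was a factor of 1.5 for counts and densities and the Wilson interval for the share with all 3 antibodies. For the E-box it was a kept direction that also passed the exact McNemar test, used here only for sorting. Requiring all 3 antibodies left 28 regions and 1 gene with a region within 1000 bp of its TSS, and the median density was 0.562 per 100 kb. Leaving out each antibody in turn gave 28 to 95 regions, 1 to 3 genes with a region at the TSS, 0.562 to 2.09 regions per 100 kb and an extended E-box in 57.9 to 71.4% of centres. Without ab1 or without ab2 the counts were 28 and 1, and without ab3 they were 95 and 3. With only scores of at least 100, 66 regions remained and 18.2% of them had all 3 antibodies, beside 15.6% in the genome. With any annotated transcript start, 6 genes had a region at the TSS. For the loose form CANNTG, 82.1% of centres and 71.6% of flanks held the element, which did not pass the exact McNemar test. Under the other 16 settings of the E-box comparison the share in the centres remained above that in the flanks, but the extended form comes from these regions and this is no independent support. They include 2 chosen after seeing the data, the higher-coordinate flank (30.5%) and leaving out the regions within 1000 bp of a gene start (64.3% against 27.4%).

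With 1 library per antibody and pooled embryos, variation between animals could not be measured. Scores depend on depth, which the peak lists do not hold, and a locus without a peak is one where none passed the limit of the caller. Samples could not be paired, since each group has 1.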
